A study of Sus scrofa with 9 samples.

Results

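A set of 7 genes of adipokine signalling were followed in skeletal muscle of a minipig model of diet-induced obesity. These are 4 ligands, ADIPOQ, LEP, RETN and RBP4, and 3 receptors, ADIPOR1, ADIPOR2 and LEPR. Members were taken by gene symbol: every array probe whose RefSeq accession belongs to one of the 7 genes was kept, which gave 14 of the 43603 probes of the array, 9 for ligands and 5 for receptors. RNA of longissimus dorsi, a back muscle, was measured on 9 one-colour arrays, 1 per animal. The animals were gonadally intact Bama minipigs, male and female. The 6 HFHSD animals were given a diet rich in fat and sucrose, with lard at 10%, sucrose at 37% and the basal diet at 53%, begun at 6 months of age and kept up for 23 months. The 3 CD animals, of the same starting age and time on study, were fed standard pig chow. Both groups were fed on a restricted schedule, housed singly and fasted overnight before dissection, and the sex of each animal is not given in the labels. The series design gives 3 CD animals and the growth protocol 6.

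Adipokines are hormones that fat cells release into the blood. Adiponectin (ADIPOQ) binds ADIPOR1 and ADIPOR2, which signal through the adaptor APPL1, AMP-activated kinase and PPAR-alpha to raise fatty acid oxidation, and in skeletal muscle ADIPOR1 is regarded as the main form. Leptin (LEP) reports fat stores to the brain and acts through LEPR, the kinase JAK2 and STAT3. Resistin (RETN) is made by adipocytes in mice and mainly by mononuclear cells in humans, and RBP4 carries retinol in plasma and is made mostly by liver and also by adipose tissue. Muscle fibres are targets of these hormones, and whole muscle also holds fat cells between the fibres.

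Values are log2 of the background-subtracted signal minus the 75th percentile of the same array, so 0 is that percentile and 1 unit is a doubling. Levels were not set against each other between probes. Between 51.2% and 68.9% of probes were well above background on 8 arrays, and 36.8% on the array CD 1, which stood apart from the others and had the noisiest negative controls. Results are therefore also given without CD 1. All 15 measured markers of muscle fibres, among them ACTA1, CKM and DES, were well above background on all 9 arrays. Of the 3 slides, slide 1 carried HFHSD 5 and HFHSD 6 without a CD array. Slide 2 carried HFHSD 1, HFHSD 3 and HFHSD 4 with CD 1, and slide 3 carried HFHSD 2 with both remaining CD arrays.

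Of the 7 genes, adiponectin had the largest difference between the diets: its transcript averaged 5.53-fold higher in HFHSD muscle. Leptin averaged 2.01-fold higher by its brighter probe, which was not well above background on CD 1. Without that array its log2 difference was 0.38, and the dimmer leptin probe differed by -0.14. The remaining ligands and both adiponectin receptors differed by less than 1.0 on the log2 scale, and LEPR was not well above background on any array. None of these differences passed an adjusted p of 0.05 (limma, Benjamini-Hochberg over all tested probes). Of the 14 probes, 12 were well above background on at least 3 arrays and were tested, and 0 of 12 passed, where 1.23% of all 27922 tested probes passed, 0.695% as higher and 0.537% as lower in HFHSD. At an unadjusted p under 0.05 there were 3 of 12, both ADIPOQ probes and 1 ADIPOR1 probe, against 16.5% of all tested probes. For 0 of the 12 probes were the groups free of overlap, where 10.9% of all tested probes had groups without overlap. The plot of member values by array shows each measurement, and the plot of member differences gives the estimates with their intervals.

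**Figure D1:**
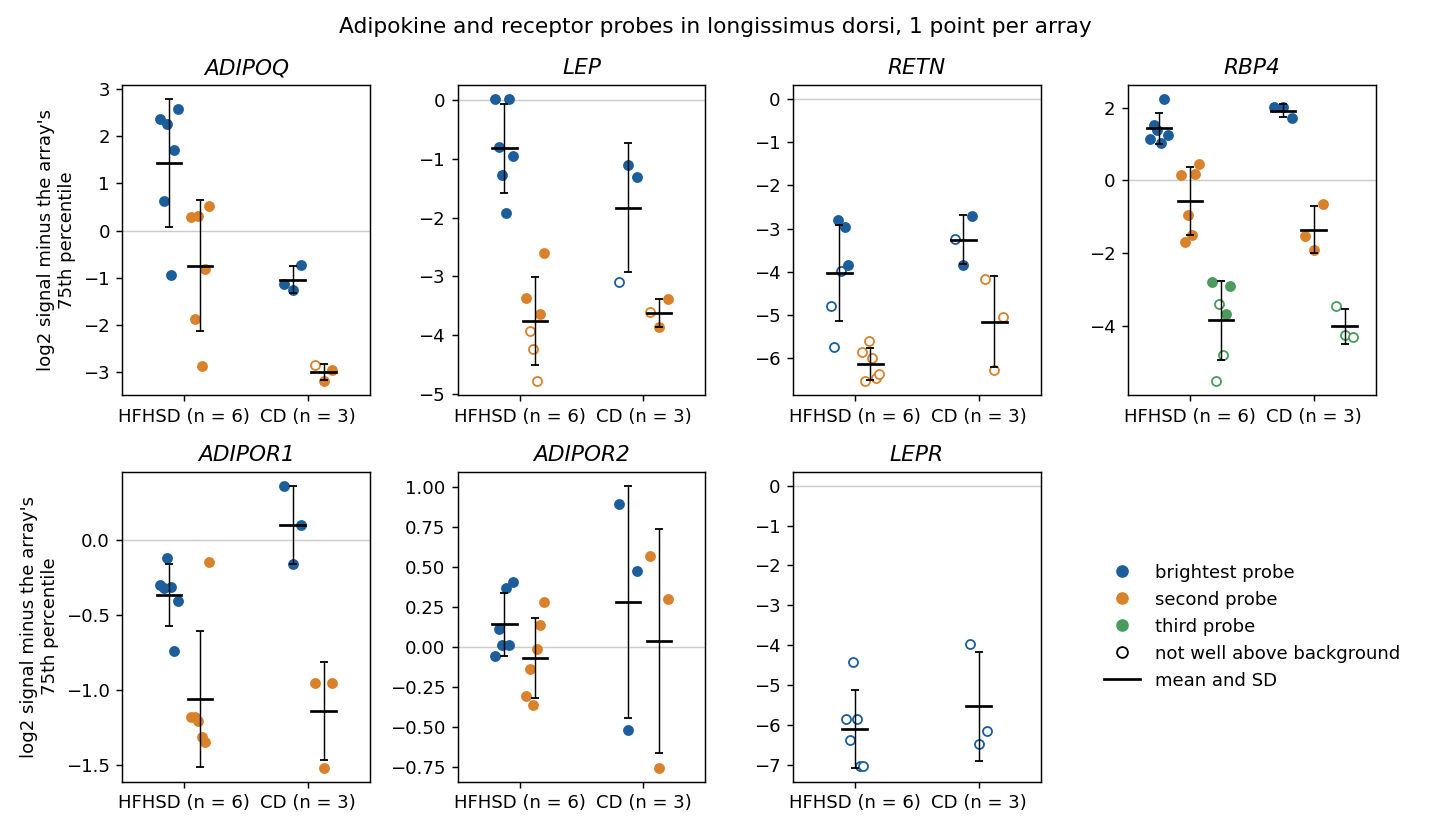
Log2 signal minus the array's 75th percentile (vertical axis) for every probe of the 7 genes, in HFHSD (n = 6) left of CD (n = 3), 1 point per array, with the mean and SD as bars. Open points were not well above background; 5 of 6 HFHSD points of ADIPOQ lie above all 3 CD points for both probes, and all LEPR points are open.

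**Figure D2:**
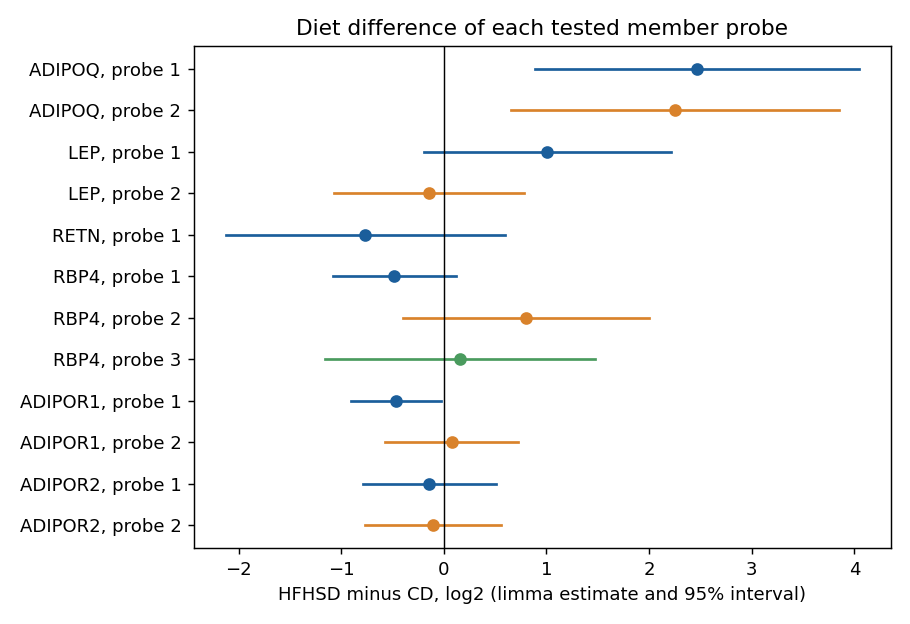
HFHSD minus CD difference in log2 (horizontal axis) of the 12 tested probes, as the limma estimate (point) and its 95% interval (line). Both ADIPOQ probes and the brightest ADIPOR1 probe have intervals that leave out 0 before adjustment, and the probes of LEP, RBP4 and ADIPOR1 lie on both sides of 0. The third RBP4 probe has only a detection bound in CD, so its estimate gives no fold.

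ADIPOQ encodes adiponectin, a hormone made almost only by fat cells. By its brightest probe (A_72_P165401, accession NM_214370) the value was 2.37 in HFHSD 1, 0.63 in HFHSD 2, 2.25 in HFHSD 3, -0.94 in HFHSD 4, 1.70 in HFHSD 5 and 2.58 in HFHSD 6, against -1.13 in CD 1, -1.25 in CD 2 and -0.72 in CD 3. Thus 5 HFHSD animals were above every CD animal, and the remaining one, HFHSD 4, lay within the CD range. Among all tested probes, 9.96% had at least 5 of 6 HFHSD arrays above every CD array. The mean was 1.43 ± 1.36 (SD, n = 6) in HFHSD and -1.04 ± 0.28 (SD, n = 3) in CD. The difference of 2.47 (SE 0.71) had a 95% interval of 0.89 to 4.04, which is 1.85-fold to 16.5-fold, and an adjusted p of 0.113 (limma). A difference at least this high was found for 0.129% of all tested probes.

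The other ADIPOQ probe (A_72_P767053) was also higher in HFHSD on average, at a lower signal, with a range of -2.88 to 0.52 in HFHSD and of -3.18 to -2.84 in CD. Its difference was 2.25 (SE 0.71, adjusted p = 0.148, limma), and across the 9 arrays the 2 probes had a Pearson r of 0.987. On CD 1 this dimmer probe was not well above background. Its difference fell to 0.73 (adjusted p = 0.609, limma) with normexp background correction and percentile scaling, and to 1.04 with normexp and quantile normalization. HFHSD animals also differed among themselves: the range of the brightest probe was 3.52 over 6 HFHSD animals and 0.53 over 3 CD animals. Of 1876 named genes that were well above background on all 9 arrays, 12 had a larger SD than ADIPOQ within HFHSD, where the median SD was 0.34, and 800 had a larger SD within CD, where the median was 0.25.

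Whether the ADIPOQ difference passed depended on a single animal. Without HFHSD 4 it was 2.94 with an adjusted p of 0.0254 (limma), and without any other single array the adjusted p ran between 0.143 and 0.311. Without CD 1 the difference was 2.42. It was 2.36 within slide 2 and 1.61 within slide 3, where HFHSD 2 is the only HFHSD array, and 2.01 when slide was a fixed term (adjusted p = 0.270, limma). In a whole-muscle sample, more fat cells and more ADIPOQ RNA in each fat cell cannot be told apart.

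Most markers of fat cells outside the 7 genes also had higher values in HFHSD. Of 21 listed adipocyte markers 12 were measured. The values of 10 were higher in HFHSD and the median difference was 0.80, against a median of -0.085 and 1109 higher of 2613 over all named genes tested. CIDEA, a lipid droplet protein of adipocytes, was the only one whose brightest probe passed (1.49, adjusted p = 0.0378, limma); 0 markers passed as lower, and 26 of 2613 named genes, 0.995%, passed by their brightest probe. A dimmer probe of TUSC5 also passed. The CIDEA call was lost, leaving 0 of 12, when any single array other than HFHSD 4 was left out. It was also lost when slide was a fixed term, without slide 1, without a filter on dim probes and under normexp with percentile scaling. The last of these gave the list a median of 0.37, and the 7 markers well above background on every array had a median of 0.33. Without CD 1 the median was 0.69, with 11 of 12 higher. The differences of DGAT2, which completes triglyceride synthesis, CIDEC, a droplet protein that enlarges fat droplets, and PPARG, the main regulator of adipocyte differentiation, were 1.47, 2.06 and 0.96, with adjusted p of 0.0744, 0.115 and 0.119 (limma). DGAT2 and CIDEC were not well above background on CD 1. The brightest FABP4 probe differed by 0.32, and its 7 probes ranged from 0.32 to 1.77. GPD1 and ADRB3 were the markers with lower values in HFHSD, at -0.24 and -0.15. PLIN1, the main droplet coat protein of white adipocytes, was detected well above background on 5 of 6 HFHSD and 0 of 3 CD arrays, and its HFHSD mean was no higher than the detection bound of the CD arrays, so no fold is given. It is counted among the 10 higher markers by its fitted value, whose sign carries no direction.

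The mean log2 value of these 12 markers lay between 0.51 and 1.12 on the HFHSD arrays and between -0.12 and 0.13 on the CD arrays. The sum of their scaled signals overlapped, at 462 to 787 in HFHSD and 521 to 821 in CD. The brightest genes set this sum, above all GPD1, whose mean log2 value was 8.74 in HFHSD and 8.98 in CD. HFHSD 4 had the lowest marker mean of the HFHSD arrays, as it had the lowest ADIPOQ value. Across the 9 arrays ADIPOQ had a positive Pearson r with 8 of 12 markers, with a median of 0.578, where the median over all 2612 other named genes was -0.094. The markers nearest to it were CIDEC (r = 0.984), PPARG (0.974) and DGAT2 (0.923), and within the 6 HFHSD arrays alone CIDEC had r = 0.971 and PPARG r = 0.967. For the other 4 markers, AQP7, PNPLA2, GPD1 and ADRB3, r was below 0, and within the 6 HFHSD arrays it was -0.801 for AQP7 and -0.885 for PNPLA2, both lipid-handling proteins. These values are descriptions of 9 arrays, and the part of fat cell content in the ADIPOQ difference was not tested. The map of adipocyte markers by array shows HFHSD 4 as the lowest HFHSD animal for ADIPOQ, LEP, CIDEC, PPARG, PLIN1 and DGAT2, whereas its LIPE and AQP7 values were high.

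**Figure D3:**
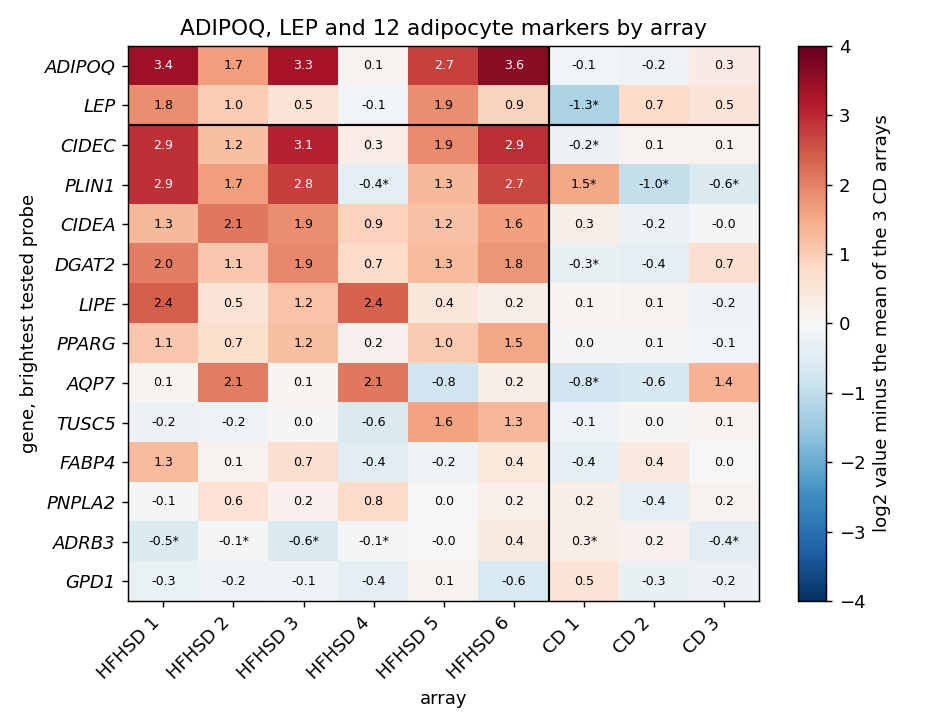
Log2 value minus the mean of the 3 CD arrays (colour and printed number) for ADIPOQ, LEP and the 12 measured adipocyte markers (rows) on each array (columns, HFHSD left of CD); an asterisk marks a value not well above background. ADIPOQ, CIDEC, PLIN1, DGAT2 and PPARG have their 3 highest values in HFHSD 1, HFHSD 3 and HFHSD 6 and their lowest HFHSD value in HFHSD 4.

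LEP encodes leptin, the hormone whose loss causes severe obesity in mice. By its brightest probe (A_72_P165551, accession NM_213840) the value was 0.02 in HFHSD 1, -0.80 in HFHSD 2, -1.28 in HFHSD 3, -1.92 in HFHSD 4, 0.02 in HFHSD 5 and -0.94 in HFHSD 6, against -3.09 in CD 1, -1.09 in CD 2 and -1.30 in CD 3. In this probe 4 HFHSD animals were above every CD animal, and HFHSD 3 and HFHSD 4 lay within the CD range. HFHSD 4 did so only by the CD 1 value and was below CD 2 and CD 3. The mean was -0.82 ± 0.76 (SD, n = 6) in HFHSD and -1.83 ± 1.10 (SD, n = 3) in CD, a difference of 1.01 (SE 0.54, 95% interval -0.19 to 2.21, adjusted p = 0.398, limma). The lowest value came from CD 1, where this probe was not well above background, and without CD 1 the difference was 0.38. Within slide 2, whose only CD array is CD 1, it was 2.03, and within slide 3 it was 0.40. The dimmer LEP probe (A_72_P442233) was well above background on 3 of 6 HFHSD and 2 of 3 CD arrays and differed by -0.14 (adjusted p = 0.912, limma). The 2 probes had r = 0.272 across the 9 arrays, and with normexp background correction and percentile scaling the difference of the brighter probe was 0.092.

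RETN, which encodes resistin, was close to the background. Its brighter probe (A_72_P505565, accession NM_213783) could be measured well above background in 3 of 6 HFHSD and 2 of 3 CD animals. It ranged from -5.74 to -2.80 with a median of -3.91 in HFHSD, against -3.23 in CD 1, -3.83 in CD 2 and -2.70 in CD 3. Of the HFHSD animals 4 were below every CD animal, 3 of them on arrays where the probe was not well above background. The difference was -0.77 (SE 0.61, 95% interval -2.13 to 0.59, adjusted p = 0.608, limma), -0.75 without CD 1, -0.62 within slide 2 and -2.48 within slide 3. The other probe (A_72_P177496) was not well above background on any of the 9 arrays. Neutrophil markers, another possible source of resistin transcripts in blood-borne cells, were measured for 4 of 8 listed genes, of which 0 passed, with differences from 0.01 for S100A8 to 0.39 for LTF. Their median was 0.21, but -0.20 when slide was a fixed term, -0.17 under normexp with percentile scaling and -0.34 without CD 2. Macrophage and monocyte markers were measured for 9 of 12, 1 higher and 8 lower, with a median of -0.16 that became 0.05 under normexp with percentile scaling, 0.04 by array weights and 0.02 without slide 1. The higher one, FCGR3A, an immunoglobulin receptor, passed (1.19, adjusted p = 0.0338, limma), and 0 passed as lower. All 3 FCGR3A probes passed in the main fit, with differences from 1.19 to 1.34. The call of its brightest probe was lost when any single array was left out, when slide was a fixed term, without slide 1 and without a filter on dim probes.

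RBP4, the plasma carrier of retinol, gave probe-dependent values. By the brightest of its 3 probes (A_72_P146486, accession NM_214057) it ranged from 1.03 to 2.24 with a median of 1.32 in HFHSD, against 2.02 in CD 1, 2.01 in CD 2 and 1.71 in CD 3. By this probe 5 HFHSD animals were below every CD animal, while HFHSD 5 was above all of them; 13.1% of all tested probes had at least 5 of 6 HFHSD arrays below every CD array. The mean was 1.43 ± 0.43 (SD, n = 6) in HFHSD and 1.91 ± 0.18 (SD, n = 3) in CD, a difference of -0.48 (SE 0.27, 95% interval -1.08 to 0.12, adjusted p = 0.425, limma), or -0.43 without CD 1. The next probe (A_72_P667921) pointed the other way, at -0.57 ± 0.94 (SD, n = 6) in HFHSD and -1.36 ± 0.65 (SD, n = 3) in CD, a difference of 0.80 (SE 0.54, adjusted p = 0.524, limma). Both were well above background on all 9 arrays, and their r was -0.165. The difference of this second probe was 0.20 when slide was a fixed term, 0.75 within slide 2 and -0.42 within slide 3, where the brightest probe gave -0.32, so the probes differed in sign within slide 2 but not within slide 3. The third probe (A_72_P531116) was well above background on 3 of 6 HFHSD and 0 of 3 CD arrays, and its HFHSD mean was below the detection bound of the CD arrays, so no fold is given. With the mean of the 3 probes in place of the brightest, RBP4 differed by 0.16 (adjusted p = 0.892, limma).

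Genes of liver and blood plasma proteins, the other main source of RBP4, were measured for 8 of 11 listed genes. All 8 had higher values in HFHSD, with a median of 0.85, and 0 passed. When slide was a fixed term 6 of 8 were higher, with a median of 0.56. Without CD 2 these were 6 of 8 and 0.50, and without CD 3 they were 7 of 8 and 1.32. FGG and TF were each detected well above background in 1 of 3 CD animals, and ALB, APOC3 and SERPINA1 in 2 of 3, not in CD 1. The 2 genes well above background on every array, APOA1 and APOA2, were both higher, with a median of 0.36. The largest difference by its brightest probe was that of ALB, serum albumin, at 1.73 (adjusted p = 0.291, limma). The mean log2 value of the 8 genes ranged from -1.75 to -0.10 in HFHSD and from -2.64 to -1.09 in CD, and was highest in HFHSD 4. With normexp and percentile scaling 5 of 8 were higher, with a median of 0.15. TTR, transthyretin, which binds RBP4 in plasma, was well above background on 4 of 6 HFHSD and 2 of 3 CD arrays and differed by 0.018. The part of these genes in the RBP4 values was not tested.

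Both adiponectin receptors were well above background on all 9 arrays by both of their probes. ADIPOR1, the adiponectin receptor tied to AMP-activated kinase, had by its brightest probe (A_72_P077761, accession NM_001007193) values from -0.74 to -0.12 with a median of -0.32 in HFHSD, against 0.36 in CD 1, -0.16 in CD 2 and 0.10 in CD 3. Again 5 HFHSD animals were below every CD animal, and HFHSD 3 lay within the CD range. The mean was -0.37 ± 0.21 (SD, n = 6) in HFHSD and 0.10 ± 0.26 (SD, n = 3) in CD, a difference of -0.47 (SE 0.20, 95% interval -0.91 to -0.03), which is 0.723-fold. Its unadjusted p was 0.0399 and its adjusted p 0.275 (limma). The difference was -0.34 without CD 1, -0.60 within slide 2 and -0.29 within slide 3. The other ADIPOR1 probe (A_72_P187361) did not share the direction: it differed by 0.08 (SE 0.29, adjusted p = 0.934, limma), with 5 of 6 HFHSD values within the CD range and HFHSD 6 far above the rest. The r between the probes was 0.083.

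ADIPOR2, the adiponectin receptor tied to PPAR-alpha, ranged by its brightest probe (A_72_P440141, accession NM_001007192) from -0.05 to 0.41 with a median of 0.06 in HFHSD, against 0.89 in CD 1, -0.52 in CD 2 and 0.48 in CD 3. All 6 HFHSD values lay within the CD range, which was the wider one: the SD was 0.20 in HFHSD and 0.73 in CD. The difference was -0.14 (SE 0.29, adjusted p = 0.871, limma), with a 95% interval of -0.79 to 0.51, which is 0.578-fold to 1.42-fold. Its sign was not stable, at 0.16 without CD 1, -0.54 without CD 2, -0.78 within slide 2 and 0.13 within slide 3. The other ADIPOR2 probe (A_72_P302919) differed by -0.11 (adjusted p = 0.909, limma) and had r = 0.926 with the first over the 9 arrays.

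LEPR, the leptin receptor, is represented by 1 named probe (A_72_P302834, accession NM_001024587), which was not well above background on any of the 6 HFHSD or the 3 CD arrays. Its processed signal ran from 1.80 to 7.72 in HFHSD and from 2.50 to 8.50 in CD, with the highest value on CD 1. No level and no fold can be given from it. LEPROT, a small membrane protein encoded at the same locus as LEPR in humans, was named for that role after its values were seen; it was well above background on all 9 arrays, at 2.93 in HFHSD and 3.14 in CD on average, and differed by -0.22 (adjusted p = 0.713, limma).

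Downstream genes of adiponectin did not pass in either direction. Of 25 other listed genes of adiponectin signalling 18 were measured, 8 higher and 10 lower in HFHSD, with a median difference of -0.24, which shrank to -0.11 when slide was a fixed term, -0.10 without slide 1 and -0.09 under normexp with percentile scaling. The largest difference of the 18 was that of PPARGC1A, at -1.47 (adjusted p = 0.321, limma), with groups that overlapped. ACACB, the mitochondrial acetyl-CoA carboxylase that restrains fatty acid oxidation, differed by -0.51 (adjusted p = 0.212, limma), and its HFHSD and CD arrays did not overlap. The groups also did not overlap for ERP44 (-0.34, adjusted p = 0.356, limma), as for 341 of 2613 named genes. PRKAG3, the AMP-activated kinase subunit of fast muscle fibres, differed by 0.51 (adjusted p = 0.304, limma). Chosen for their roles after their values were seen, APPL1, the adaptor of both receptors, differed by 0.27 and CDH13, the T-cadherin that binds adiponectin, by -0.39.

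Leptin signalling was measured for 10 of 20 other listed genes, 3 higher and 7 lower, with a median of -0.19, and 0 passed. JAK2, the kinase bound to the leptin receptor, differed by 0.55 (adjusted p = 0.230, limma), whereas PTPN1, the phosphatase that switches JAK2 off, differed by -0.73 (adjusted p = 0.260, limma), although its 3 probes ranged from -0.73 to 0.02. MTOR, a growth kinase downstream of the hormone, differed by -0.48 with groups that did not overlap (adjusted p = 0.261, limma). SOCS3, the feedback inhibitor of leptin signalling, differed by -0.59 (adjusted p = 0.296, limma) and was well above background on 3 of 6 HFHSD and 2 of 3 CD arrays. Under normexp and percentile scaling this list's median was 0.04, and without CD 1 it was 0.01.

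Retinoid genes were measured for 9 of 28 other listed genes, 5 higher and 4 lower, and 0 passed. Their median was 0.01, but -0.33 in the fit that blocks on slide. RXRB, a nuclear receptor that pairs with retinoic acid receptors, differed by -0.99 (adjusted p = 0.119, limma) with groups that did not overlap, and its 3 probes ranged from -0.99 to -0.28. STRA6, the membrane receptor of RBP4, differed by 0.36. Of the resistin family and its proposed receptors 3 of 5 other genes were measured: TLR4 differed by -0.19, RETNLB by -0.13 and DCN by 0.15, and 0 passed.

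Most other adipokines had higher values in HFHSD, but none passed by its brightest probe. Of 44 listed genes 22 were measured, 16 higher and 6 lower in HFHSD, with a median of 0.46, and 0 passed by their brightest probe. Among the 12 of them well above background on every array 7 were higher, with a median of 0.14. When only such probes were tested 1 gene passed, VEGFA, which was lower in HFHSD. The median of all 22 was 0.03 with normexp and percentile scaling and 0.13 with slide as a fixed block. VEGFA, the angiogenic growth factor, went the other way at -2.39 (SE 0.54, adjusted p = 0.0631, limma), and the dimmer of its 2 probes passed at -2.33. ANGPTL2 differed by 0.71, C1QTNF3, a paralogue of adiponectin, by 1.37, and LCN2, an iron-binding lipocalin, by 0.95, each detected well above background in 2 of 3 CD animals, with adjusted p between 0.156 and 0.259 (limma). Of 18 receptors of other adipokines 7 were measured, with a median of -0.09, but -0.34 under normexp with percentile scaling and 0.04 when slide was a random term. TNFRSF1A, a receptor of tumour necrosis factor, fell by 1.40 (adjusted p = 0.0331, limma), by 1 of its 3 probes, and 0 receptors passed as higher. That call was lost when any single array other than HFHSD 1 or HFHSD 4 was left out, when slide was a fixed term, without slide 1, without a filter on dim probes and under normexp with percentile scaling. IL6R differed by -0.35, TREM2 by 0.19 and FLT1 by -0.12.

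**Figure D4:**
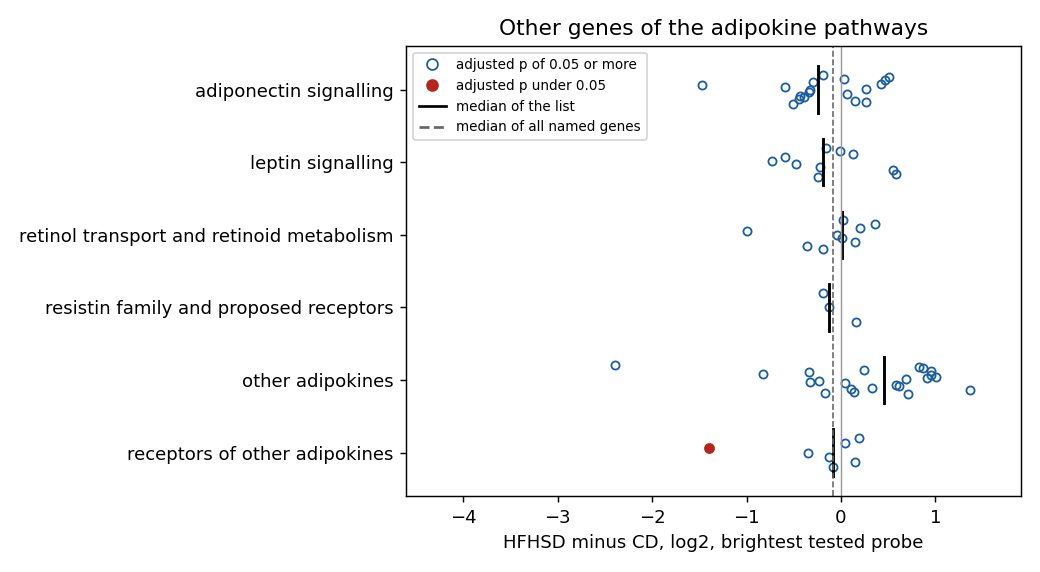
HFHSD minus CD difference in log2 (horizontal axis) by the brightest tested probe of each measured gene in 6 lists, without the 7 members; black bars are list medians and the dashed line is the median of all 2613 named genes. Filled red points have an adjusted p under 0.05, of which TNFRSF1A is the 1 shown, and the list of other adipokines has a median of 0.46.

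The remaining lists cover the fibres themselves and other cell types. Muscle fibre markers, 15 of 17 measured, had a median of -0.17, but 0.35 under normexp and percentile scaling. Endothelial markers, 5 of 10 measured, had a median of 0.00, but 0.27 under normexp with percentile scaling and -0.19 without CD 1. Fibroblast and fibro-adipogenic progenitor markers, 6 of 12 measured, had a median of 0.10, but -0.04 when slide was a fixed term and 0.41 without CD 1. In these 3 lists 0 genes passed. Of the 7 listed erythrocyte markers 0 had a named probe.

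The genes whose values followed each member most closely over the 9 arrays were taken from 2612 named genes by Pearson r, and the highest of so many values is high by selection. For ADIPOQ they were CIDEC and PPARG, given above, NCK2 (r = 0.956) and SULT1A3 (0.941). For LEP they were FXYD3 (0.918), MET (0.915), SEC62 (0.903) and SMAD2 (0.854), of which 0 are adipocyte markers of the list; the r of LEP with ADIPOQ was 0.654. For RBP4 the order was RHBG (0.977), HTT (0.963), PEAK1 (0.951) and CLDN4 (0.937), and its r with ADIPOQ was -0.339. ADIPOR1 was followed by ATP6V0E1 (0.968), PES1 (0.960), DBNDD2 (0.959) and CTSH (0.948). For ADIPOR2 the nearest were FBN1 (0.889), CYP2C33 (0.874), SLC30A1 (0.869) and PSMB3 (0.866), but within the 6 HFHSD arrays PSMB3 had r = 0.073. RETN, near background, was closest to NPL (0.906), C12H17orf75 (0.899), TMEM33 (0.853) and FAM213B (0.838).

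**Figure D5:**
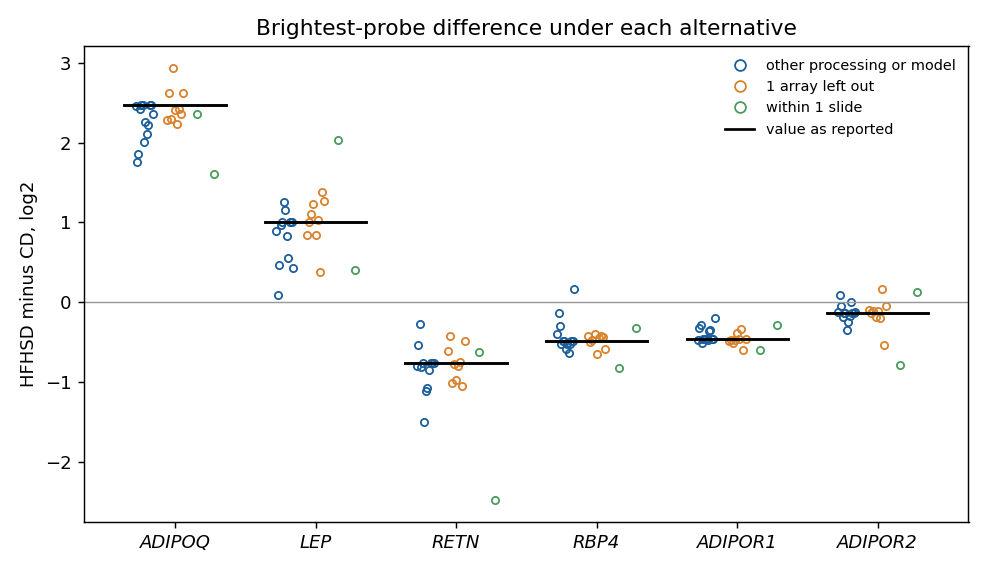
HFHSD minus CD difference in log2 (vertical axis) of the brightest probe of each tested gene under every alternative; the black bar is the value as reported, blue points are other processing or models, orange points leave out 1 array and green points are within 1 slide. ADIPOQ stayed between 1.61 and 2.94, whereas LEP ran from 0.092 to 2.03 and ADIPOR2 crossed 0.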

How the data were processed

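The authors extracted spot intensity values with Agilent Feature Extraction 10.7.3.1, per the file headers. The deposited processed signal is background-subtracted within each array and not scaled between arrays, and the deposited value table holds the same intensity values (0 spots differed). Control and outlier spots were left out, replicate spots averaged in log2, and 22 probes dropped. Each signal was put on a log2 scale and the array's own 75th percentile subtracted. Accessions matched a RefSeq table of Sscrofa11.1, used for names only, for 6891 probes of 3196 genes. No coordinates are given, since the files name no genome build.

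Probes well above background on at least 3 arrays (27922) entered a two-sided test of HFHSD minus CD (limma 3.58.1, R 4.3.3) over 9 arrays without covariates, with Benjamini-Hochberg adjustment over all of them and a threshold of 0.05. The fit was tested on simulated data. A gene's main value is its brightest tested probe by the mean over all arrays. Replicate numbers follow accession order and only name arrays. Other settings were quantile normalization, normexp with an offset of 50 (on median spot signals), median scaling, 2 other filters, slide as a fixed or random block, array weights, a variance trend, the deposited table, the mean of a gene's probes, and each array left out. Named genes are the members, passing genes and up to 4 genes of smallest p in each of 14 lists, and the 4 genes most like each member; 1 gene named by this rule is not reported here. Members and lists were chosen with earlier results of these data known. The number of arrays limits the precision.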

Additional observations from a re-analysis of the deposited data

Results flagged for a closer look

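The dimmer ADIPOR1 probe (A_72_P187361) had 1 HFHSD array far from the others: HFHSD 6 was at -0.15, while the other 5 HFHSD arrays lay between -1.35 and -1.18. The brightest ADIPOR1 probe was not set apart on that array, at -0.41. The gap to the nearest array was 0.859 of the group's range, past Dixon's 95% critical value of 0.625. That critical value is passed by chance in about 1 of 20 groups, and both ends of 14 probes were examined.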

How the results depend on the processing

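No paired analysis was possible because the labels give no replicate numbers that the groups share. In the main fit 344 probes passed, 194 higher and 150 lower. The total passing, counted anew under each setting and not out of these 344, was 88 with normexp and percentile scaling (63 higher and 25 lower). It was 856 with normexp and quantile normalization, 66 without a filter on dim probes and 736 among probes well above background on all arrays. It was 84 with slide as a fixed term, 677 with slide as a random one, 57 without slide 1, 1205 with array weights and 612 with a variance trend. With 1 array left out it ran from 25 to 325. Normexp with percentile scaling moved the median of all probes to -0.17, against -0.02.

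For ADIPOQ, leaving out 1 array gave 2.24 to 2.94, and only without HFHSD 4 did it pass. The dimmer ADIPOQ probe kept its sign but ran from 0.73 to 2.68 over the other settings. LEP was 2.03 within slide 2, RETN -2.48 within slide 3 and ADIPOR2 -0.78 within slide 2. Signs turned for RBP4 with the mean of its probes (0.16) and for ADIPOR2 with normexp and percentile scaling (0.085), array weights (0.0029) and single arrays left out (-0.54 to 0.16). Among the dimmer probes, LEP turned with normexp and quantile normalization (0.027) and 1 array left out (-0.38 to 0.061). The second RBP4 probe was -0.42 within slide 3, against 0.80 over all arrays. The third RBP4 probe has only a bound in CD, so the sign of its fitted value (0.16) carries no direction; it was below 0 with normexp and percentile scaling (-0.41), slide as a fixed (-0.69) or random block (-0.26), and without slide 1 (-0.12), and it ran from -0.051 to 0.50 with 1 array left out. The dimmer ADIPOR1 probe turned under the same settings (-0.063, -0.12, -0.013, -0.080, and -0.11 to 0.17). The dimmer ADIPOR2 probe turned with normexp and percentile scaling (0.017) and 1 array left out (-0.50 to 0.16). The cause was not tested. Depth is limited by signal over background: RETN, LEPR and the dimmest LEP and RBP4 probes lay near it.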
